A study of Mus musculus with 10 samples.

Results

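The monocyte-macrophage lineage factors and receptors described here are 9 genes, Csf1, Csf1r, Csf2ra, Csf2rb, Spi1, Adgre1, Ccr2, Cx3cr1 and Itgam, taken by name. Every probe was kept whose gene name in the scanner files, or whose current symbol through the accession beside that name, was a member, which gave 17 of 41174 probes and 9 of 27670 genes. Spi1, Adgre1 and Csf2rb stand in the files under the older names Sfpi1, Emr1 and Csf2rb1. Lung RNA of 10 female BALB/c mice, an inbred laboratory strain, was hybridised to Agilent whole mouse genome arrays, with 1 mouse per array. In the smoke group, 5 mice that were 6 to 8 weeks old when obtained breathed the smoke of 12 cigarettes, 2 times a day for 50 minutes, on 5 days of the week over 8 weeks. The room air group was 5 mice of the same strain, sex and age that were handled over the same time without smoke. No allele or agent other than smoke separates the groups in the labels, and whole lung was used, so each value is a mean over all cell types of the organ.

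Monocytes and macrophages arise from bone marrow and fetal precursors under growth factors that act through paired receptors on the cell surface. Csf1 and Il34 bind the receptor tyrosine kinase Csf1r, whereas Csf2, also called GM-CSF, binds an alpha chain, Csf2ra, that signals through the shared beta chain Csf2rb and is needed for alveolar macrophages to mature. Spi1 encodes PU.1, the transcription factor that sets the myeloid programme, and Ccr2, Cx3cr1, Itgam and Adgre1 are surface proteins used to follow monocytes and macrophages into tissue.

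Each level is the log2 ratio of lung RNA over a reference RNA on the same array. The labels name a single dye, but every file holds a red and a green channel. Red was read as the female lung, since 3 genes of the Y chromosome (Ddx3y, Eif2s3y and Kdm5d) passed the background test in green on 10 of 10 arrays each and in red on 2, 0 and 1 arrays, and since the lung genes Sftpc, Scgb1a1 and Ager were brighter in red by 6.39, 6.72 and 4.83 on the log2 scale. The deposited table of processed values has the groups exchanged against the scanner files: all 286449 of its values equal, within 1e-04, the array of the same number in the other group, whereas 286 equal the array with the same label. Each scanner file was kept with the sample it is assigned to. Every direction of change depends on this choice and on the content read for red and green. Red spots were well above background for 67.8 to 76.7% of the probes with room air and for 64.9 to 77.5% with smoke. With 5 arrays a group, the number of arrays limits precision. An offset of 50 was added to the intensities, which lowers the fold change of dim probes.

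The arrays lie on 5 slides, and each slide holds the smoke and the room air array of the same replicate number. On every slide smoke took place 1 and room air place 2, so place and group cannot be told apart. Room air replicate 1 stands apart in these genes. It was the highest of the 5 room air lungs in 6 of the 9 members and the lowest in 2, whereas over all genes it was the highest in 25.1% and the lowest in 23.6%. Counts over the members and the lists are therefore given with and without this array. Each array was left out in turn, and this one was singled out after the data were seen.

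Smoke-exposed lungs had more RNA of several receptors of the lineage and of its transcription factor Spi1. By limma's test, adjusted over all probes at a threshold of 0.05, 5 of the 9 members rose (Csf1r, Csf2rb, Spi1, Adgre1 and Cx3cr1) and 0 fell, against 8.21% of all genes, 4.94% higher with smoke and 3.27% lower. Without adjustment 8 of the 9 had a p under 0.05, as did 19.9% of all genes. A fold change over 1.5 besides the adjusted test was met by 3 of 9 members (Csf2rb, Adgre1 and Cx3cr1) and 2.4% of all genes. The other 4 members, Csf1, Csf2ra, Ccr2 and Itgam, had higher means with smoke but missed the threshold. The 10 lungs did not overlap between groups in 5 of 9 members, against 7.85% of all genes. At the level of probes, 8 of 17 passed against 7.06% of all probes. When probes well above background in red on fewer than 5 arrays were left out, 5 of 9 members passed, against 12.3% of the genes that remained. With the slide as a block, 5 of 9 members passed while the share over all genes grew to 13.8%. Without room air replicate 1, 9 of 9 members passed and all were higher with smoke, against 10.3% of all genes in either direction. The median difference was 0.57 over the members and -0.00 over all genes on the log2 scale. All 9 means were also higher with smoke under every other normalization of the scanner files. In lung tissue, a larger number of cells and more RNA per cell cannot be told apart.

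**Figure D1:**
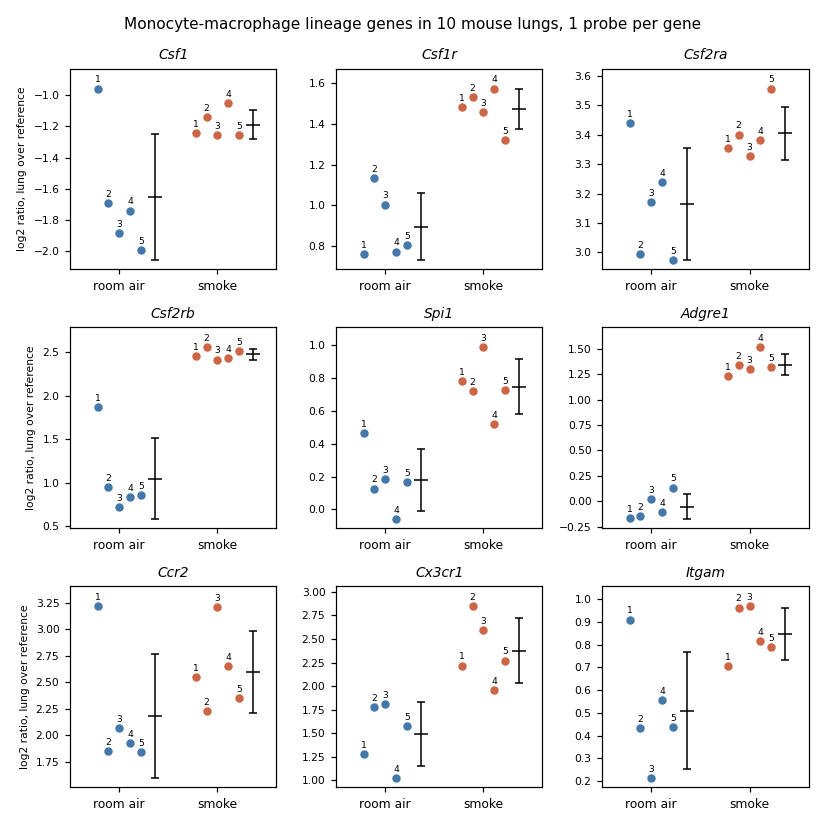
Log2 ratio of lung over reference for the brightest probe of each of the 9 members, with 1 point per lung (5 room air, 5 smoke) and the group mean and SD. The groups separate completely in 5 members, and room air replicate 1 is the highest room air lung in 6.

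Csf1, the growth factor of the mononuclear phagocyte lineage, was measured by 1 probe with 10 spots (chr3:107559703-107559762). Probe coordinates are those of the array design on build mm7, for which no annotation was used here, so exon and UTR positions are not given. Its log2 ratio was -0.96, -1.69, -1.88, -1.74 and -1.99 in room air replicates 1 to 5, and -1.24, -1.14, -1.25, -1.05 and -1.26 in smoke replicates 1 to 5. Room air replicate 1 lay above all 5 smoke-exposed lungs, and the other 4 room air lungs lay below all of them. The means were -1.65 ± 0.41 and -1.19 ± 0.09 (SD, n = 5 each), a ratio of 1.38 (95% confidence interval 1.08 to 1.76) with an adjusted p of 0.131 by limma. Smoke exceeded room air on 4 of the 5 slides, with within-slide differences of -0.28, 0.55, 0.63, 0.69 and 0.73. Leaving out room air replicate 1 gave 1.56-fold, with an adjusted p of 0.000256.

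Csf1r, the receptor for Csf1 and Il34, is found on monocytes and macrophages. Its brightest probe stood at 0.76, 1.14, 1.00, 0.77 and 0.81 in the room air lungs and at 1.48, 1.53, 1.46, 1.57 and 1.32 in the smoke-exposed lungs. All 5 smoke-exposed lungs were above all 5 room air lungs, and the differences on the 5 slides ran from 0.40 to 0.80. The rise was 1.49-fold (95% confidence interval 1.32 to 1.69), with a log2 difference of 0.58 ± 0.08 (SE) and an adjusted p of 0.00128 by limma. In the red channel alone the difference was 0.68, and the adjusted p of 0.125 missed the threshold. Median centring of the arrays in place of loess gave 0.48, also past no threshold, with an adjusted p of 0.0591. Of 2 other probes, A_52_P602091 rose by 0.46 on the log2 scale (adjusted p = 0.0206), and A_52_P570471 differed by 0.19 (adjusted p = 0.231), or by 0.70 in red alone (adjusted p = 0.587).

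The receptor for Csf2 is built of an alpha chain that binds the ligand and a beta chain that carries the signal. Csf2rb, the beta chain shared with the receptors for Il3 and Il5, had the largest log2 difference of the 9 members (1.43). Its brightest probe, A_52_P52618 (chr15:78433690-78433749), stood at 1.87, 0.95, 0.72, 0.83 and 0.86 with room air and at 2.46, 2.56, 2.41, 2.43 and 2.52 with smoke. Room air replicate 1 stood well apart from its group and still below every smoke-exposed lung. The mean went from 1.05 ± 0.47 to 2.48 ± 0.06 (SD, n = 5 each), a rise of 2.69-fold (95% confidence interval 2.04 to 3.55) with an adjusted p of 0.0007 by limma. Smoke exceeded room air on all 5 slides, by 0.59 on slide 1 and by 1.59 to 1.70 on the others. The rise was 3.11-fold without room air replicate 1 (adjusted p = 4.61e-08).

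A pair of other probes read Csf2rb at lower coordinates, and both rose. Each has an open reading frame through its 60 bases, and the match of A_52_P664853 spans 263 bases of the genome, so it crosses a place where exons are joined. The sequences are shown because these dimmer probes gave the same direction at other places of the transcript.
Csf2rb A_52_P492939 (chr15:78431162-78431221): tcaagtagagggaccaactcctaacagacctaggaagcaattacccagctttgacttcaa
Csf2rb A_52_P664853 (chr15:78429378-78429640): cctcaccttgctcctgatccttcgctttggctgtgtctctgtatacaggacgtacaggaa
A_52_P492939 rose 1.33-fold (adjusted p = 0.00334) and A_52_P664853 rose 1.43-fold (adjusted p = 0.00306), with no overlap between the groups. In red alone, where no offset was added, the corresponding ratios were 2.86 (adjusted p = 0.00272) and 2.00 (adjusted p = 0.187). Csf2rb2, the beta chain that mice use for Il3 only, lies beside Csf2rb on the same chromosome and was measured by a probe of its own. The genes are near-identical copies, and whether a probe of one also reads the other was not tested. It stood at 0.45, -0.22, -0.25, -0.13 and -0.15 with room air and at 1.38, 1.14, 1.25, 1.31 and 1.46 with smoke. This is a rise of 2.58-fold, with an adjusted p of 7.28e-05 by limma and no overlap between the groups.

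Csf2ra, the alpha chain, gave another picture (chr19:61146986-61147045). Its log2 ratio was 3.44, 2.99, 3.17, 3.24 and 2.98 with room air and 3.35, 3.40, 3.33, 3.38 and 3.56 with smoke. All 5 smoke-exposed lungs lay above 4 of the room air lungs, and room air replicate 1 lay among them. The difference was 0.24 ± 0.09 (SE), or 1.18-fold (95% confidence interval 1.03 to 1.35), and the adjusted p of 0.152 by limma missed the threshold. It was 1.24-fold when room air replicate 1 was left out (adjusted p = 0.0209).

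The ratio of Csf2ra hides a larger difference in each channel. In red, relative to the 75th percentile of each array, Csf2ra stood at 3.54, 2.99, 2.92, 2.45 and 2.55 with room air and at 4.04, 3.88, 4.14, 4.03 and 3.76 with smoke on the log2 scale. This is a rise of 2.11-fold with no overlap (adjusted p = 0.0145). In green, which holds the reference, it stood at 0.17, -0.02, -0.26, -1.0 and -0.53 on the room air arrays and at 0.78, 0.48, 0.93, 0.68 and 0.20 on the smoke arrays. The reference signal of this probe was thus also higher on the smoke arrays, by 0.94 (unadjusted p = 0.00221 by limma), again with no overlap, and it did not pass after adjustment. In red alone 5 of 9 members passed, all higher with smoke (Csf2ra, Csf2rb, Spi1, Adgre1 and Cx3cr1), against 4.91% of all genes. In green alone 0 of 9 passed, and 0.0217% of all genes passed, which is 6 genes. An unadjusted p under 0.05 by limma was met in green by 2 members, Csf2ra and Csf2rb, and by 1.24% of all genes. The green signal of Csf2rb was higher on the smoke arrays by 0.21 (unadjusted p = 0.018 by limma). Where red and green move together, the ratio is smaller than the difference in red. The comparison of the channels was chosen after the data were seen, and what moves the green signal was not tested.

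**Figure D2:**
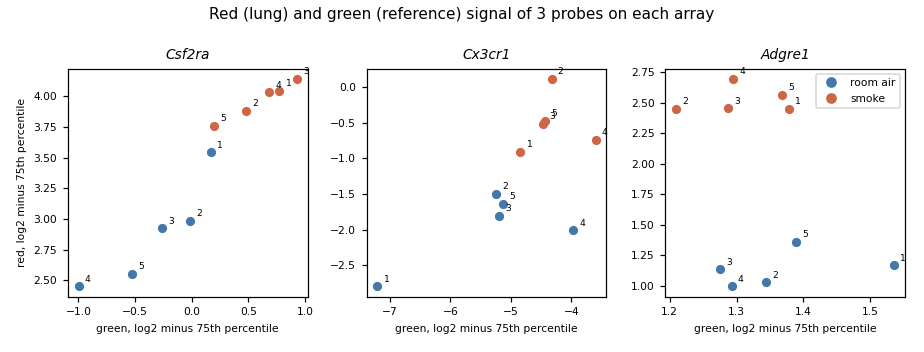
Log2 signal of Csf2ra, Cx3cr1 and Adgre1 in the red (lung) and green (reference) channel, relative to the 75th percentile of each channel, with 1 point per array. Green differs little between groups for Adgre1 (-0.06) and is higher on the smoke arrays for Csf2ra (0.94).

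Spi1, which encodes PU.1, rose in smoke-exposed lungs. It was measured by 1 probe whose match spans 13788 bases of the genome (chr2:90950224-90964011), so the probe crosses a place where exons are joined. The sequence, with an open reading frame through its 60 bases, is shown because it reads the spliced transcript of the factor.
Spi1 A_52_P498086: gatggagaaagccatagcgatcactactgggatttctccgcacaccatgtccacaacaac
The log2 ratio was 0.47, 0.13, 0.19, -0.06 and 0.16 with room air and 0.78, 0.72, 0.99, 0.52 and 0.73 with smoke. Every smoke-exposed lung was above every room air lung, the nearest being room air replicate 1 and smoke replicate 4. The means of 0.18 ± 0.19 and 0.75 ± 0.17 (SD, n = 5 each) give a rise of 1.49-fold (95% confidence interval 1.27 to 1.73), with an adjusted p of 0.00543 by limma. The ratio differed by 0.32 to 0.80 within slides, and in red alone the rise was 2.1-fold (adjusted p = 0.00458).

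Adgre1, the adhesion receptor by which mouse macrophages are commonly stained, had the smallest adjusted p of the members in the fit of all 10 arrays. The brightest probe (chr17:55686649-55686708) stood at -0.16, -0.14, 0.02, -0.11 and 0.14 with room air and at 1.23, 1.34, 1.30, 1.51 and 1.32 with smoke. The replicates of each group lay close together, and the groups were far apart. The rise was 2.62-fold (95% confidence interval 2.36 to 2.92), with a log2 difference of 1.39 ± 0.07 (SE) and an adjusted p of 8.4e-07 by limma. It was 1.19 to 1.62 on the 5 slides, and leaving out any of the 10 arrays gave 1.35 to 1.44. A dimmer probe reads chr17:55613754-55613813 with an open reading frame, and its sequence is shown as the place of the transcript where the call depends on the fit.
Adgre1 A_52_P364727: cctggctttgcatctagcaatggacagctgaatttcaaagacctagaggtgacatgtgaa
Here the ratio was -0.60, -0.19, -0.21, -0.17 and -0.08 with room air and -0.02, -0.11, 0.12, 0.06 and 0.17 with smoke, with room air replicate 1 the lowest. The difference was 1.22-fold (adjusted p = 0.102 by limma), and with the slide as a block the adjusted p was 0.0339. In red alone this probe was 2.34-fold higher with smoke (adjusted p = 0.0093).

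Ccr2, the receptor through which Ccl2 and related chemokines draw monocytes from the blood, had wide spread. Its log2 ratio was 3.22, 1.85, 2.07, 1.93 and 1.84 with room air and 2.55, 2.22, 3.21, 2.65 and 2.35 with smoke. Room air replicate 1 was the highest of the 10 lungs, with smoke replicate 3 next, and the other 4 room air lungs were below all 5 smoke-exposed lungs. The difference was 0.42 ± 0.27 (SE), or 1.33-fold, with a 95% confidence interval from 0.889 to 2.00 and an adjusted p of 0.5 by limma. Within slides it was -0.67, 0.37, 1.14, 0.72 and 0.51, and without room air replicate 1 it was 1.6-fold (adjusted p = 0.028). Green was well above background on 0 of 10 arrays for this probe, so the denominator of its ratio is at the level of the background. Another probe of Ccr2 differed by 0.04 (adjusted p = 0.907), or by 0.44 in red alone (adjusted p = 0.866).

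Cx3cr1, the fractalkine receptor of patrolling monocytes and some tissue macrophages, rose. The brightest probe, A_52_P99810 (chr9:119745795-119745854), stood at 1.28, 1.78, 1.81, 1.02 and 1.57 with room air and at 2.22, 2.85, 2.59, 1.96 and 2.27 with smoke. The groups did not overlap, and the arrays of slide 4 were the lowest of both. The rise was 1.85-fold (95% confidence interval 1.39 to 2.45, adjusted p = 0.0139 by limma), and the 5 slides differed by 0.94, 1.07, 0.78, 0.94 and 0.70. In red alone the rise was 2.72-fold (adjusted p = 0.0152). The mean green signal of this probe was higher on the smoke arrays by 1.01 (unadjusted p = 0.0786 by limma), with room air replicate 1 far below the rest. It stood at -7.21, -5.25, -5.19, -3.97 and -5.12 on the room air arrays and at -4.84, -4.33, -4.47, -3.60 and -4.44 on the smoke arrays. With the scanner software's own ratio the difference was 0.43 (adjusted p = 0.694). A dimmer probe with an open reading frame at chr9:119747387-119747446, well above background in red on 4 of 5 arrays of each group, differed by 0.09 (adjusted p = 0.337). In red alone it differed by 0.41 (adjusted p = 0.898), and its green signal was well above background on 1 of 5 arrays of each group. The sequence is given since this probe did not pass.
Cx3cr1 A_51_P350853: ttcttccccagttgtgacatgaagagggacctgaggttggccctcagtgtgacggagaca

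Itgam encodes CD11b, the alpha chain that pairs with Itgb2 on monocytes, neutrophils and recruited macrophages. The brightest probe (chr7:124213977-124214037) stood at 0.91, 0.43, 0.21, 0.56 and 0.44 with room air and at 0.70, 0.96, 0.97, 0.81 and 0.79 with smoke. As for Csf2ra, all 5 smoke-exposed lungs exceeded 4 of the room air lungs, and room air replicate 1 stood among them. The difference was 1.26-fold (95% confidence interval 1.07 to 1.5, adjusted p = 0.109 by limma), and 1.35-fold without room air replicate 1 (adjusted p = 0.00543). In red alone it was 1.92-fold (adjusted p = 0.302). Green was well above background on 3 of 5 room air arrays and 5 of 5 smoke arrays for this probe, and on 2 of 5 arrays of each group for the next, which limits both ratios. Another probe, A_52_P669155 (chr7:124214519-124214578), differed by 0.51 with an adjusted p of 0.169, which was 0.0312 with the slide as a block and 0.0213 without room air replicate 1, and by 1.18 in red alone (adjusted p = 0.136).

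**Figure D3:**
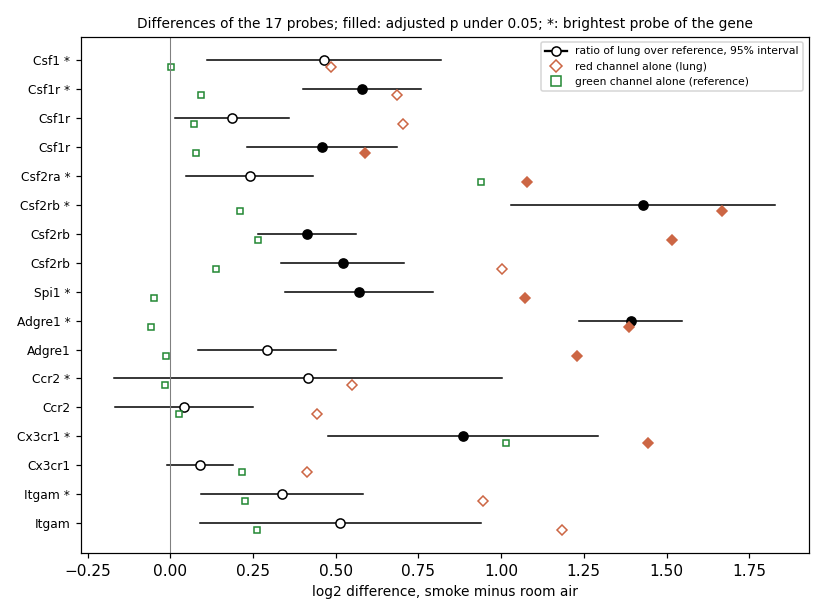
Log2 difference, smoke minus room air, of each of the 17 probes of the 9 members with its 95% confidence interval. Of the 17 probes 8 passed the threshold, and probes of 1 gene differ in size, as for Adgre1 (1.39 and 0.29).

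A list of 19 genes, called ligands and partner chains here, was also described. It includes related genes that are neither for a member, such as Csf3, Csf3r and Itgal. Of the 19 genes 18 were measured (Itgad was not), and 4 rose and 1 fell, against 4.94% and 3.27% of all genes. Their median difference was 0.35. The same shares of all genes apply to the counts of the lists below. Itgax, or CD11c, and Itgb2, or CD18, form integrins of myeloid cells. Itgb2 stood at 0.34, 0.38, 0.50, 0.17 and 0.58 with room air and at 1.69, 1.66, 1.71, 1.62 and 1.66 with smoke, and rose 2.42-fold (adjusted p = 1.7e-06 by limma). Itgax, at 2.81, 2.75, 2.73, 2.57 and 2.67 against 3.98, 4.15, 4.13, 3.94 and 4.03, rose 2.53-fold (adjusted p = 2.56e-07). Neither overlapped between the groups. In red alone Itgax rose 4.35-fold, and its reference signal was also higher on the smoke arrays, by 0.93 on the log2 scale (adjusted p = 0.00675). Ccl8, a chemokine for monocytes, stood at 2.56, 1.37, 1.18, 1.24 and 1.44 with room air and at 2.92, 2.86, 2.75, 2.52 and 2.96 with smoke. It rose 2.37-fold (adjusted p = 0.00639), although room air replicate 1 slightly exceeded smoke replicate 4. The ligand of Cx3cr1 went the other way. Cx3cl1, or fractalkine, stood at 0.78, 0.54, 0.17, 0.48 and 0.21 with room air and at -0.20, -0.18, -0.68, -0.26 and -0.42 with smoke. It fell by 0.79 ± 0.13 (SE) on the log2 scale (adjusted p = 0.00315 by limma), with no overlap.

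For several ligands room air replicate 1 lay above every smoke-exposed lung and the other 4 room air lungs lay below them. Csf2 stood at 4.02 in that lung, at 1.43, 1.47, 1.17 and 1.41 in the other 4 room air lungs and at 2.65, 2.88, 2.94, 2.57 and 2.62 in the smoke-exposed lungs. Over all lungs it differed by 0.84 (adjusted p = 0.394), and without room air replicate 1 it was 2.58-fold higher with smoke (adjusted p = 5.28e-06). Ccl2, the main ligand of Ccr2, stood at -0.03 in room air replicate 1, at -4.16, -4.08, -4.11 and -4.22 in the other room air lungs and at -2.80, -2.62, -2.73, -2.85 and -2.63 with smoke. The difference of 0.59 (adjusted p = 0.781) became 2.67-fold without that array (adjusted p = 2e-07). Ccl7 and Ccl12, further ligands of Ccr2, placed the lungs likewise. Ccl7 differed by 0.62 over all lungs (adjusted p = 0.763) and 2.66-fold without room air replicate 1 (adjusted p = 8.51e-05). For Ccl12 the values were 0.87 (adjusted p = 0.455) and 2.75-fold (adjusted p = 0.000417). Il34, the other ligand of Csf1r, stood at 1.92 in room air replicate 1, at 0.98 to 1.28 in the other room air lungs and at 1.67 to 1.83 with smoke. It differed by 0.49 (adjusted p = 0.097), with an adjusted p of 0.0327 with the slide as a block and 0.000136 without that array.

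Without room air replicate 1, 9 of the 18 measured genes of this list were higher and 1 lower, with a median of 0.59. The remaining genes of the list missed the threshold with and without that array. Csf3 differed by -0.15 (adjusted p = 0.743) and was well above background on 1 of 10 arrays, and its receptor Csf3r differed by 0.22 (adjusted p = 0.826), or 0.52 without room air replicate 1 (adjusted p = 0.115). Il3, Il5 and Il5ra were not well above background on any array and differed by -0.02, -0.00 and 0.02. Il3ra differed by -0.06 (adjusted p = 0.946). Itgal, the alpha chain of LFA-1, and Icam1, which Itgam and Itgal bind, differed by -0.08 (adjusted p = 0.733) and -0.03 (adjusted p = 0.968), and without that array by -0.02 and 0.14.

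**Figure D4:**
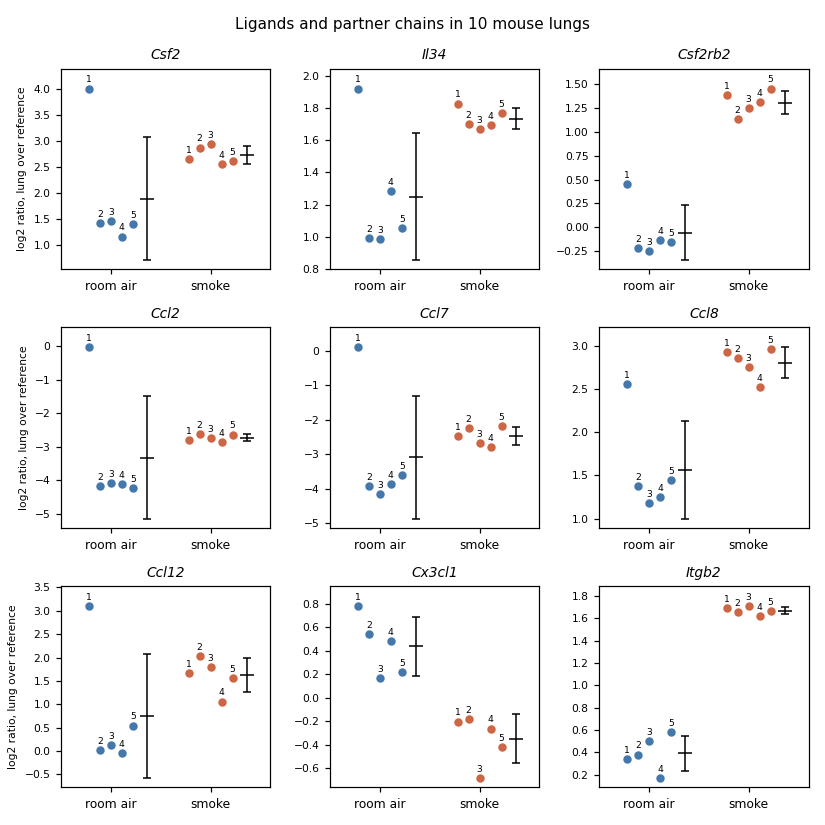
Log2 ratio of lung over reference for 9 genes of the list of ligands and partner chains, with 1 point per lung and the group mean and SD. Room air replicate 1 stands far above the other 4 room air lungs for Ccl2 (-0.03), Ccl12 (3.1) and Csf2 (4.02), whereas all 5 smoke-exposed lungs are above all room air lungs for Itgb2 and Csf2rb2.

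Of 24 transcription factors of the lineage 23 were measured (Cebpe was not), and 9 rose and 1 fell, with a median difference of 0.25. The zinc finger factor Egr2 rose 2.14-fold (adjusted p = 0.000802 by limma), and Tfec, a macrophage factor related to Mitf, rose 2.09-fold (adjusted p = 0.00653). Bhlhe41, which supports the alveolar macrophage state, rose 1.88-fold (adjusted p = 9.67e-05), and 3.25-fold in red alone. Klf4, a factor of monocytes that endothelium and epithelium also express, fell by 0.86 ± 0.09 (SE) on the log2 scale (adjusted p = 0.000197). The counts were 10 higher and 1 lower without room air replicate 1, and with the slide as a block 11 and 2.

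Among 26 genes that carry signals from these receptors, 8 rose and 0 fell, with a median of 0.15. Tyrobp, the adaptor DAP12, rose 1.95-fold (adjusted p = 4.2e-05 by limma), and the phosphatase Ptpn6 rose 1.75-fold (adjusted p = 0.000221). Vav1, an exchange factor of blood cells, rose 1.72-fold (adjusted p = 0.00335). Syk, a kinase downstream of Tyrobp and of integrins, rose 1.61-fold (adjusted p = 0.0216) with some overlap between the groups, and with 1 array left out its adjusted p was up to 0.0593. Its call held in 12 of 15 other settings of test, normalization and channel. Of the 26, 14 were higher and 0 lower without room air replicate 1, with a median of 0.30.

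Most pan-macrophage markers moved in the same direction as the members, with a higher mean under smoke in 9 of 10. Of 10 pan-macrophage markers, 6 rose and 0 fell, with a median difference of 0.97. Their mean log2 ratio was 1.74, 1.24, 1.30, 1.29 and 1.31 in the room air lungs and 2.36, 2.44, 2.29, 2.36 and 2.33 in the smoke-exposed lungs. The groups did not overlap in this mean, and Lyz2 had the brightest red signal. Cd68, a lysosomal protein of macrophages, rose 4.16-fold (adjusted p = 6.92e-09 by limma), and the galectin Lgals3 rose 4.00-fold (adjusted p = 8.9e-09). The protease Ctss rose 2.72-fold (adjusted p = 4.95e-06) and Laptm5 rose 1.97-fold (adjusted p = 2.99e-05). Without room air replicate 1, 7 of the 10 were higher and 0 lower. The part of macrophage number in the rise of the receptors was not tested.

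Alveolar and interstitial macrophage markers both held genes that rose. Of 11 alveolar markers 10 were measured (Ear2 was not), 4 rose and 0 fell, and the median was 0.30, with Chil3 the brightest. Whether past the threshold or not, 7 of these 10 had a higher mean with smoke, and the rest did not. Their mean was 4.07, 3.79, 4.04, 3.68 and 3.76 with room air and 4.63, 4.45, 4.84, 4.21 and 4.57 with smoke, without overlap. The scavenger receptor Marco rose 6.05-fold (adjusted p = 0.00248 by limma), the lectin Chil3 rose 4.33-fold (adjusted p = 0.000138), and the mannose receptor Mrc1 rose 2.20-fold (adjusted p = 0.00115). Plet1 rose 2.42-fold (adjusted p = 0.0473), a call that held in 2 of the 10 fits that leave out 1 array, with an adjusted p of up to 0.117 in the others. Of 10 interstitial markers, 5 rose and 0 fell, with a median of 0.42 and Apoe the brightest. The mean went from 2.75, 2.60, 2.72, 2.37 and 2.49 to 3.41, 3.36, 3.45, 3.00 and 3.24. Ms4a7 rose 5.04-fold (adjusted p = 1.13e-09), and the platelet factor gene Pf4 rose 2.08-fold (adjusted p = 0.0015). The complement genes C1qb and C1qa rose 2.5-fold (adjusted p = 0.00428) and 1.72-fold (adjusted p = 0.00633). The size for C1qa was unstable, with a log2 difference of 0.19 by the scanner's ratio (adjusted p = 0.669) and 1.95 in red alone, while its reference signal was higher on the smoke arrays by 1.77 (adjusted p = 0.00655). Marco rose 12.7-fold in red alone. Over the 15 other settings the calls of C1qa, C1qb, Mrc1 and Plet1 held in 12, 13, 13 and 10. When room air replicate 1 was left out, the alveolar list had 4 higher and 1 lower, with a median of 0.22, and the interstitial list 5 and 0, with a median of 0.51.

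Monocyte markers showed less movement than the macrophage lists in their counts, a difference that was not tested. Of 10 classical monocyte markers 9 were measured (Ly6c2 was not), and Ccr1 was not well above background on any array. S100a4 rose 1.63-fold (adjusted p = 0.0275 by limma) and Ly6c1, which endothelium also expresses, fell by 0.26 on the log2 scale (adjusted p = 0.0328). With 1 array left out at a time these calls held in 2 and 3 of 10 fits, and the adjusted p was up to 0.0746 and 0.0841, and over the 15 other settings they held in 12 and 8. The median was 0.00, Ly6c1 was the brightest, and the mean was 0.64, 0.03, 0.15, -0.03 and 0.16 with room air and 0.31, 0.11, 0.34, 0.12 and 0.22 with smoke. Of 8 patrolling monocyte markers 0 passed in either direction, Clec4a1 was not well above background on any array, and Eno3 was the brightest. The median was -0.08, and their mean ran from 1.00 to 1.11 with room air and from 0.89 to 1.10 with smoke. Leaving out room air replicate 1 gave 1 higher and 0 lower for the classical and 0 in either direction for the patrolling markers. Their part in the result for Ccr2 and Cx3cr1 was not tested.

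Neutrophils carry Itgam and Csf2rb as well. Of 12 neutrophil markers 11 were measured (Ly6g was not), and 3 rose and 0 fell, with a median of 0.16. The mean was 2.89, 1.52, 1.63, 1.39 and 1.54 with room air and 2.42, 2.13, 2.30, 1.99 and 2.06 with smoke, with S100a9 the brightest. Room air replicate 1 was thus the highest of all 10 lungs for these markers, as it was for Ccr2, Csf2 and Ccl2. Il1r2 rose 2.91-fold (adjusted p = 0.0197 by limma), the collagenase Mmp8 rose 2.24-fold (adjusted p = 0.021), and the granule peptide gene Camp rose 1.51-fold (adjusted p = 0.00881). With 1 array left out at a time the adjusted p was up to 0.0528 for Il1r2 and 0.0562 for Mmp8. All 3 calls held in 13 of the 15 other settings, and in red alone Il1r2 differed by 2.70 on the log2 scale (adjusted p = 0.0587) and Camp by 1.80 (adjusted p = 0.0762). Without room air replicate 1, 5 markers were higher, with a median of 0.50. The part of neutrophils in the values of room air replicate 1 was not tested.

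Of 10 dendritic cell markers 3 rose and 0 fell (median 0.09, Batf3 the brightest), namely Itgae 1.77-fold (adjusted p = 0.00186 by limma), Ccr7 1.36-fold (adjusted p = 0.0402) and Flt3 1.20-fold (adjusted p = 0.016). Natural killer cell markers had 1 of 8 higher and 1 lower (median -0.25, Nkg7 the brightest), against 4.94% and 3.27% of all genes. Klra8 rose 1.94-fold (adjusted p = 0.000366), or 3.33-fold in red alone, and Prf1 fell by 0.64 on the log2 scale (adjusted p = 0.0128). Of 9 eosinophil and mast cell markers, Fcer1a fell by 0.17 (adjusted p = 0.0374) and the other 8 did not pass (median -0.07, Kit the brightest). T cell markers had 0 of 8 in either direction (median 0.07, Lck the brightest). Of 8 B cell markers Cd22 rose 1.80-fold (adjusted p = 0.0136), with a median of 0.10 and Cd79b the brightest. Of 7 endothelial markers 0 rose and 2 fell, with a median of -0.17 and Cldn5 the brightest. Ednrb fell by 0.78 (adjusted p = 0.0134) and Pecam1 by 0.41 (adjusted p = 0.0488), and the mean was 4.87, 4.91, 5.09, 4.67 and 4.88 with room air and 4.65, 4.76, 4.86, 4.35 and 4.55 with smoke. Alveolar epithelial markers had 0 of 8 in either direction, with a median of -0.02 and Sftpc the brightest. The calls of Ccr7, Fcer1a and Pecam1 held in 3, 1 and 3 of the 10 fits that leave out 1 array, with an adjusted p of up to 0.104, 0.0884 and 0.119. Over the 15 other settings these held in 9, 7 and 7. The calls of Cd22, Prf1 and Ednrb held in 12 each and that of Flt3 in 10, and the adjusted p reached 0.812, 0.783, 0.307 and 0.451. With the slide as a block, the T cell markers had 2 higher and the dendritic cell markers 4 higher and 2 lower. The patrolling monocyte markers had 1 higher, and the pan-macrophage, alveolar macrophage and alveolar epithelial markers 1 lower each. Neutrophil markers had 4 higher, interstitial macrophage markers 6 higher and endothelial markers 3 lower. In this fit 13.8% of all genes were called. Leaving out room air replicate 1 gave 4 higher and 0 lower for the dendritic cell markers, 1 and 2 for the natural killer cell markers and 0 and 0 for the eosinophil and mast cell markers, and the T cell, B cell, endothelial and alveolar epithelial counts stayed as they were. The part of these cells in the rise of the members was not tested.

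**Figure D5:**
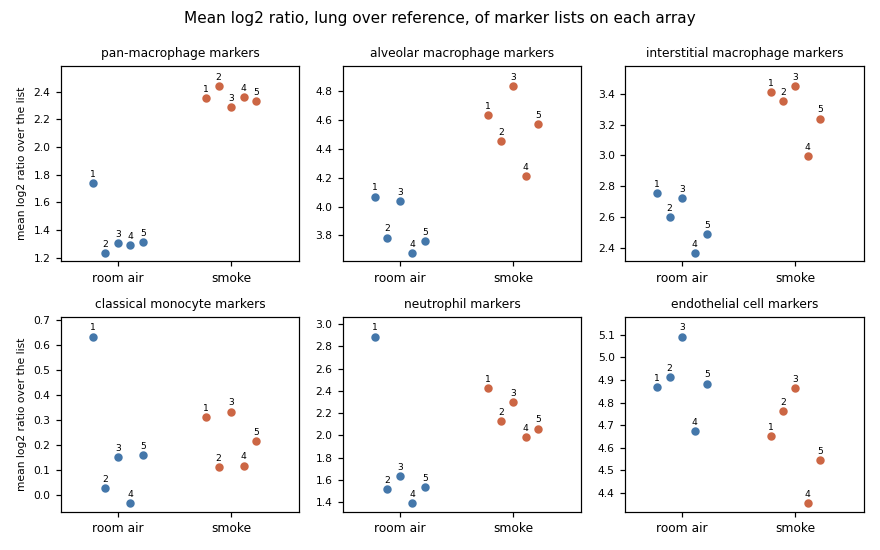
Mean log2 ratio of lung over reference of 6 lists of cell type markers, with 1 point per lung. The groups do not overlap for pan-macrophage, alveolar and interstitial macrophage markers, and room air replicate 1 (2.89) is the highest lung for neutrophil markers.

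For each member the 3 genes with the most similar pattern over the 10 arrays were sought among 17126 genes, after the group means were subtracted, as a description without a test. The arrays share slides, and some of these correlations rest on room air replicate 1. Csf2rb was most like Acod1, Tpd52 and Nadk (Pearson r = 0.991, 0.991 and 0.990), which fell to 0.784, 0.816 and 0.763 without that array. Csf1 was most like C3, Gdap10 and F830028O17Rik (0.984, 0.982 and 0.974), and Ccr2 was most like Mmp8, 4833432P19Rik and Sema3c (0.986, 0.974 and 0.966). Without room air replicate 1, C3 had 0.894 with Csf1 and Mmp8 had 0.959 with Ccr2. Itgam was most like Iqgap1, Lins1 and Afp (0.968, 0.958 and 0.953). Spi1 was most like an immunoglobulin kappa variable gene, Zfp638 and Btf3 (0.985, 0.983 and 0.970), and Csf1r like Mta3, Map1lc3b and Porcn (0.964, 0.960 and 0.959). For Adgre1 the genes were Ptcd2, Tbpl1 and Slc7a7 (0.920, 0.914 and 0.912). Cx3cr1 had Aspscr1, the probe name NAP062699-1 and Taf1c (0.961, 0.952 and 0.951), and Csf2ra had Abhd11, Srsf1 and Fstl1 (0.913, 0.899 and 0.896).

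PU.1, the product of Spi1, binds purine-rich sites with the core GAGGAA. This core was sought on both strands (TTCCTC on the other) in the 250 bases before the start of each gene in the table of promoters used here, made from RefSeq's GRCm38.p6 annotation, which has entries for 5 of the 9 members (Csf1, Csf2ra, Ccr2, Cx3cr1 and Itgam). It was present in Itgam and Csf2ra, so in 2 of 5, and in 7639 of 32851 promoters (23.3%). In Itgam (chr7:128062390-128062639, plus strand) it begins 84 bases before the start on the forward strand and 15 bases before it on the reverse strand. In Csf2ra (chr19:61228419-61228668, minus strand) it begins 14 and 8 bases before the start. Csf2rb2 (chr15:78305722-78305971, minus strand) has it on the reverse strand 167 bases before the start. The sequences are shown because these receptor genes hold the core, which capitals mark. Csf2ra and Itgam missed the threshold for smoke (adjusted p = 0.152 and 0.109 by limma). Of the members that passed, Cx3cr1 lacks the core in these bases and the others have no entry. A match is a description of letters and was not tested for binding.
Itgam: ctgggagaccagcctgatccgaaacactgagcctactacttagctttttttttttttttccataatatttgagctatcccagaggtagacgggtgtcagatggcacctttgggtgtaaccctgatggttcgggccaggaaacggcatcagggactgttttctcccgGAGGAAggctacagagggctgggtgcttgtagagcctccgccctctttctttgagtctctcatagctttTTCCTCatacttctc
Csf2ra: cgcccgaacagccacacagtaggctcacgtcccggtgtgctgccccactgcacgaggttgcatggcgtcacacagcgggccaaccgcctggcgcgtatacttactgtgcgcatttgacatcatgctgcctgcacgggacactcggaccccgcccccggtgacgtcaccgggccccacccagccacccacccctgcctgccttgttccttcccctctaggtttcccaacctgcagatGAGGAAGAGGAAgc
Csf2rb2: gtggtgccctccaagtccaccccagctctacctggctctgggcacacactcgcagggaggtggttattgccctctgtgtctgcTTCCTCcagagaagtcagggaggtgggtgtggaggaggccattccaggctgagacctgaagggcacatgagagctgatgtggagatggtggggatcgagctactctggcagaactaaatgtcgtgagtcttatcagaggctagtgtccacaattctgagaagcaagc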

How the data were processed

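Lung RNA of 5 smoke-exposed and 5 room air mice was measured on 1 array each, with groups and replicate numbers taken from the sample labels. The authors deposited scanner output in which Agilent Feature Extraction 9.5.3.1, per the file headers (9.1 in the submitters' processing notes), reports spot intensity and local background intensity for red and green, with flags. These deposited files also hold the software's own log10 ratio (red to green). A further table deposited by the authors holds log2 values that average the channels, with groups exchanged against the scanner files. How it was centred is not given in the sources used here, and it served only as an alternative.

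Mean intensities were corrected with normexp in limma 3.58.1 (R 4.3.3) with an offset of 50. Control spots were dropped, loess was applied to the ratios of each array, spots that the software flags as outliers were treated as missing values, and repeated spots of a probe were averaged. Groups were compared with lmFit and eBayes, two-sided, with Benjamini-Hochberg adjustment over 41173 probes and a threshold of 0.05. Fold changes were obtained as antilogs of differences between mean log2 ratios. A gene is represented by its brightest probe in red. In the single-channel values, the processed signal was set relative to the 75th percentile of its log2 on each array. Of all probes, 22951 were named through the accession, 6659 by a current symbol, 3109 through a synonym and 8455 by the name in the file. Probe coordinates are on mm7 and promoters on GRCm38.p6, and neither was converted. Only the fit and its adjustment, not the steps before them, were tested on simulated log2 ratios. Of 200 probes given a change 191 were called, with 13 false calls. The simulated noise was independent between arrays, without pairs by slide or an array that stands apart.

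Arrays of the same number share a slide, and they deviated together from the group means, with correlations of 0.157, 0.46, 0.461, 0.55 and 0.415. Arrays of different numbers had a median of -0.124 and at most 0.205. Subtracting the group means by itself pulls these values below 0 where arrays of the same number correlate. Samples thus form pairs by slide, which the main fit leaves out and an alternative takes up as a block. In all, 16 alternatives were planned and 3 were chosen after seeing the data: a block for the scan day, a scaling between arrays, and the use of the alternatives on the lists of other genes.

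The members and lists were chosen with earlier results of these data known. The text names all members and their probes, all ligands and partner chains, and of each other list the genes past the threshold, up to 4 in each direction by size of the difference, apart from 1 gene that is counted but not described. It also names the 3 genes most like each member, and 6 genes that show the content of the channels.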

Additional observations from a re-analysis of the deposited data

Results flagged for a closer look

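An array was singled out where its gap to the nearest array of its group, divided by the range of the group, exceeded 0.71, the critical value for 5 arrays. Chance alone does so in about 1 in 20 groups. This occurred in 19 of 140 groups tested, and in 13 of the 19 the array was room air replicate 1. Among the members it was the highest for Csf2rb probe A_52_P52618 (0.801) and for the brightest probe of Ccr2 (0.832), and the lowest for Adgre1 probe A_52_P364727 (0.753). Among the ligands and partners it was the highest for Csf2 (0.893), Csf3 (0.791), Csf2rb2 (0.829), Ccl2 (0.967), Ccl7 (0.873), Ccl8 (0.81) and Ccl12 (0.812). Among the markers it was the highest for S100a4 (0.784), Il1r2 (0.879) and Mmp8 (0.885). What sets this lung or array apart was not tested.

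The other 6 cases fell on 4 arrays. Smoke replicate 5 was the highest for Egr2 (0.8). Smoke replicate 4 was the lowest for Marco (0.821) and Plet1 (0.718). Smoke replicate 3 was the highest for Mrc1 (0.835) and Flt3 (0.778). Room air replicate 4 was the lowest for Cd22 (0.773).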

How the results depend on the processing

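Of the 9 members, 5 passed the threshold in the fit described, and 5 with the slide as a block, which changed no other call of a member's brightest probe. The exact Wilcoxon test that the methods name gave 0 (5 at an unadjusted p under 0.05, as were 5444 of 41133 probes; the smallest p it allows is 0.00794, or 0.115 adjusted, against 0 probes called in all). Array weights gave 8, with the lowest weight, 0.459, on room air replicate 1, while the share of all genes called grew from 8.21% to 10.1%. A fold change over 1.5 gave 3, against 2.4% of all genes. Leaving out 1 array gave 5 to 9, the latter without room air replicate 1. Median centring and the scanner's ratio gave 4 each, with 4.14% and 7.17% of all genes called. Median centring called 1434 probes (47.9% higher) against 2906 (61.7% higher), the scanner's ratio 2575, red alone 1757, and the slide as a block 5019. The deposited table with its columns as labelled called 0 members and 13 probes, and there every measured member reversed, since its groups are exchanged.

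In that table the differences were -0.16 for Csf1, -0.30 for Csf1r, -0.99 for Csf2ra, -0.88 for Csf2rb, -0.35 for Spi1, -0.62 for Adgre1, -0.62 for Cx3cr1 and -0.24 for Itgam, around a median of 0.086 over its probes. The exact Wilcoxon test left the differences as they were, 0.58 for Csf1r, 1.43 for Csf2rb, 0.57 for Spi1, 1.39 for Adgre1 and 0.89 for Cx3cr1, none past the threshold. Csf1r also missed it with median centring (0.48), red alone (0.68) and red with quantile normalization (0.67), and Cx3cr1 with the scanner's ratio (0.43). Csf1 (0.55), Csf2ra (0.29) and Itgam (0.36) passed with array weights, and Csf2ra in red alone (1.08) and in red with quantile normalization (1.07). Leaving out 1 array gave 0.38 to 0.64 for Csf1, 0.54 to 0.64 for Csf1r, 0.19 to 0.31 for Csf2ra, 1.35 to 1.64 for Csf2rb, 0.51 to 0.64 for Spi1, 1.35 to 1.44 for Adgre1, 0.26 to 0.67 for Ccr2, 0.77 to 0.99 for Cx3cr1 and 0.26 to 0.44 for Itgam. The highest values for Csf1, Csf2ra, Ccr2 and Itgam came without room air replicate 1, and these 4 members then passed. Apart from the table's exchange, the cause of these changes was not tested.

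Of the ligands and partners, 4 higher became 0 and 1 lower became 0 with the Wilcoxon test, and leaving out 1 array gave 4 to 9 higher. Of the transcription factors, 9 higher became 0 with the Wilcoxon test and 5 with median centring, and 1 lower became 0 with the Wilcoxon test and 2 with the slide as a block. Of the signalling genes, 8 higher became 0 with the Wilcoxon test, 3 with median centring and 5 with red alone, and leaving out 1 array gave 5 to 14.

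Genes near 0 that never passed changed sign. The log2 difference of Il3ra became 0.040 with array weights and 0.0048 with scaling between arrays, Icam1 became 0.044 and 0.20 with the same settings, and Csf3r became -0.036 with the scanner's ratio. Il5 became 0.035 without background subtraction, 0.0020 with an offset of 16 and 0.016 with median centring, and the log2 difference of Itgal became 0.0095 in red with quantile normalization and 0.0035 as the mean of its probes. Leaving out 1 array gave -0.22 to 0.025 for Csf3, -0.050 to 0.0081 for Il3, -0.21 to 0.084 for Il3ra, -0.027 to 0.022 for Il5, -0.011 to 0.045 for Il5ra and -0.14 to 0.14 for Icam1. Of 1321 comparisons over 53 genes of the lists, 1140 kept the direction and the side of the threshold, 147 lost the call, 9 gained it and 25 reversed. For the counts of the marker lists, 550 of 650 stayed within 1.5 times. Signal over background limits the values of the dimmer probes.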

Other observations

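In the green channel, which holds the reference RNA, 6 genes passed limma's test between the smoke and the room air arrays, and all 6 were higher on the smoke arrays and also rose in red. The genes were named after their values were seen. They are Itgax and the complement genes C1qa and C1qc, with the chemokine Ccl6, the thromboxane synthase Tbxas1 and the protease Ctsk. Ccl6 had the largest green difference, 1.97 ± 0.16 (SE) on the log2 scale (adjusted p = 0.00655), beside 2.73 in red and 1.07 in the ratio. For C1qa the differences were 1.77 in green (adjusted p = 0.00655), 1.95 in red and 0.78 in the ratio. Itgax differed by 0.93 in green (adjusted p = 0.00675), 2.12 in red and 1.34 in the ratio. C1qc differed by 1.59 in green and 0.56 in the ratio, Tbxas1 by 1.03 and 0.94, and Ctsk by 1.13 and 2.80. The green signal of each of the 6 was well above background on all 10 arrays, and its lowest value on a smoke array exceeded its highest on a room air array. What moves the reference signal was not tested.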
